A study of Mus musculus with 16 samples.

Results

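Il17a, Il17f and Il22, the 3 genes described here out of the 32285 genes counted, encode secreted cytokines of type 17 lymphocytes. IL-17A and IL-17F are close relatives that act as dimers on IL-17 receptors of epithelial and stromal cells and draw in neutrophils, whereas IL-22 belongs to the IL-10 family and acts on epithelial cells. IL-17-producing γδ T cells, or γδ T17 cells, acquire this programme in the thymus, bear receptors for IL-23 and IL-1β and can respond within hours. The lineage has a subset with the Vγ6 chain, which carries the scavenger receptor Scart1 (encoded by Cd163l1), and a subset with the Vγ4 chain, which carries Scart2 (encoded by 5830411N06Rik).

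The cells came from male C57BL/6J mice and, for D5-DT, Mgl2-DTR mice, all 6 to 12 weeks old. Mice were fed chow with 0.1% DDC (3,5-diethoxycarbonyl-1,4-dihydrocollidine), which causes cholestatic bile duct injury, for 0, 5, 9 or 19 days (D0, D5, D9, D19). STOP mice had 18 days of DDC and then 7 days of normal chow. D5-DT mice express the diphtheria toxin receptor from the Mgl2 locus, which lets diphtheria toxin (DT) remove Mgl2+ dendritic cells and any other cell with that receptor, and were given DT on days -1 and 2 around 5 days of DDC. Live Cd45+ Cd3e+ TCRβ- TCRγδ+ cells were sorted from liver and liver draining lymph node (LN), labelled with hashtag antibodies and sequenced in 5 pools as single-cell 3' UMI counts. One pool combined the liver arms of D0, D5 and D9, another those of D19 and STOP, and D5-DT cells of both tissues had a pool to themselves. The LN arms of D0 and D5 shared a pool, as did the LN arms of D19 and STOP. Of 35616 cells with at least 1000 RNA UMIs, 33564 were assigned to 1 of 11 hashtag arms. A further 3 LN libraries (D0, D5, D19; the description of the D5 library names day 6, and that of the LN D19 pool names days 18 and 19) came from CITE-seq of unselected cells mixed with sorted Cd45+ Itgax-, Cd45+ Itgax+, Pdpn+ and Cd45- Pdpn- cells. Each tissue and day had 1 arm or library, the number of mice behind each is not given in the sources used here, and no difference between days or between D5-DT and D5 could be tested. Intervals (95%, exact) cover counting error only.

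γδ T cells were split by their receptor transcripts. Cells with at least 2 UMIs of Cd163l1, Trdv4 and Tcrg-V6 together and none of 5830411N06Rik formed the Scart1 gate (9175 cells), and cells with at least 1 UMI of 5830411N06Rik and a Scart1 sum under 2 formed the Scart2 gate (3802 cells). Another 709 cells passed both and 19878 passed neither. Cd163l1 and 5830411N06Rik are related in sequence, so reads of one may have been counted for the other. The summed level of Trdc, Tcrg-C1, Cd3e, Cd3d and Cd3g was 3637 to 8529 CPM (UMIs scaled to a common library total) over the arms in the Scart1 gate and 2480 to 4626 CPM in the Scart2 gate. Foxp3, the regulatory T cell factor, was at 0 in the Scart1 gate in all 11 arms and at 0 to 0.48 CPM in the Scart2 gate. Alpha-beta T cell markers (Trac, Trbc1, Trbc2, Cd4, Cd8a and Cd8b1) summed to 943 to 1957.5 CPM in the Scart1 gate and 1118 to 3073 CPM in the Scart2 gate. B cell markers reached 222 and 288 CPM, and dendritic cell markers 693 and 621 CPM. The part of other cells in the gates was not tested. Libraries held 13074668 to 71447265 RNA UMIs and 1719 to 12487 cells, and no pair of libraries shared more than 29 cell barcodes.

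Depth per cell differed between arms (median 2197 to 5500 UMIs in the gates), so every cell was thinned at random to 1000 UMIs, and a cell with at least 1 remaining UMI of a gene is called positive (Il17a+, for example). Cells outside both gates with at least 2 UMIs of naive T cell genes and 0 of a set of type 17 and tissue homing genes, which should lack the cytokines, gave the background (7355 cells, median 3480 to 6098 UMIs per arm). Il17a was found in 30 of them (0 to 3.80% by arm), Il17f in 5 (0 to 0.837%) and Il22 in 0. In free RNA (barcodes of 10 to 100 UMIs) Il17a, Il17f and Il22 stood at 545, 20.03 and 7.05 CPM in the liver pool of D0, D5 and D9, at 1354, 81.1 and 9.01 CPM in that of D19 and STOP, and at 196, 0 and 0 CPM in the D5-DT pool. The D5-DT values rest on 30574 free UMIs, 6 of them Il17a, against 1221167 to 3545070 in the other pools. The 0 values of that pool therefore do not show a lower free level. The LN pools had 52.8, 6.24 and 2.19 CPM (D0 and D5) and 116, 15.1 and 5.27 CPM (D19 and STOP). Some levels in the gates were no higher than these, such as Il17f (17.1 CPM) and Il22 (6.77 CPM) in liver D5 Scart1 cells and Il17a (1037 CPM) in liver D19 Scart2 cells, and the part of free RNA in these levels was not tested.

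Il17a (ENSMUSG00000025929) lies on mouse chromosome 1 at 20730905 to 20734496 on the forward strand, and Il17f (ENSMUSG00000041872) at 20777146 to 20785274 on the reverse strand (GRCm38.p6), so the pair is separated by 42649 bases. Il22 (ENSMUSG00000074695) lies on chromosome 10 at 118204584 to 118210047. In most arms compared, Il17f was detected more often in Il17a+ than in Il17a- cells, a difference that did not pass its sign-flip test (below). For this pair the 250 bases before the start of each gene are therefore shown. They come from RefSeq, 5′ to 3′ on the gene's own strand, with motif matches in capitals. The Il17a window is chr1:20730655-20730904 (+) and the Il17f window chr1:20784271-20784520 (-), which lies inside the span of a longer predicted Il17f transcript.
Il17a: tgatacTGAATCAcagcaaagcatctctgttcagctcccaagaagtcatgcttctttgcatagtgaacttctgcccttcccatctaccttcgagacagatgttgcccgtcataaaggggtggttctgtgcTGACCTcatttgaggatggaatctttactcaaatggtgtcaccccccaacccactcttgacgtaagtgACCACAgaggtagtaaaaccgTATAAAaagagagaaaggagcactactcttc
Il17f: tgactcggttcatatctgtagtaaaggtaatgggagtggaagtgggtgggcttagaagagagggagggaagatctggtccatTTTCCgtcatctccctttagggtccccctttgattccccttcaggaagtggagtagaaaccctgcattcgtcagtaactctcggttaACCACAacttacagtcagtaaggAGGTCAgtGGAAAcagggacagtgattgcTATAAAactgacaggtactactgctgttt
Both windows hold 1 TATAAA match (31 and 29 bases before the start; 12.4% of 32851 mouse promoter windows hold it on either strand), 1 nuclear receptor half-site AGGTCA or its reverse TGACCT (120 and 58 bases; 14.0%) and 1 RUNX site ACCACA or TGTGGT (52 and 81 bases; 14.0%). The AP-1 letters TGANTCA occurred in the Il17a window alone (6.75% of promoters), and the NFAT core GGAAA or TTTCC occurred 2 times in the Il17f window and 0 times in that of Il17a (55.6%). Neither window held the STAT letters TTCNNNGAA (7.02%) or the AHR core GCGTG (28.2%). These are letter matches in a short window and not measured sites.

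Pooled over arms, Il17a was the most frequent of the 3 transcripts in both gates, and its level in Scart1 cells of the liver was highest in the D9, D19 and STOP arms. In the Scart1 gate of the liver, Il17a+ cells made up 22.2% at D0 (42 of 189 cells), 31.4% at D5, 52.0% at D9, 55.3% at D19, 61.6% at STOP and 28.3% at D5-DT. In the Scart1 gate of the LN they made up 9.30% at D0, 20.04% at D5, 15% at D19, 19.3% at STOP and 14.5% at D5-DT. Each liver arm lay above every LN arm, although the interval of liver D0 (16.5 to 28.8%) reached the shares of LN D5 and STOP. Over all UMIs of the gate, Il17a stood at 3154 CPM at liver STOP (3098 to 3211), 2675 at D19, 2490 at D9, 1004 at D5, 835 at D5-DT and 671 at D0. LN arms ranged from 98.2 CPM at D0 to 761 CPM at STOP, and the counting intervals of LN STOP (669 to 863) overlapped those of liver D5-DT and liver D0, as those of LN D5 and LN D5-DT overlapped each other. In the Scart2 gate Il17a+ cells were 3.51% at liver D0 (2 of 57 cells), 27.8% at D5, 39.0% at D9, 25.2% at D19, 34.1% at STOP and 16.3% at D5-DT. The liver D0 share was no higher than that of background cells in that arm (3 of 79 cells, 3.80%), although the 3 background cells held 1 thinned Il17a UMI each and the 2 Scart2 cells at least 2 each. LN Scart2 cells were lower, from 0 of 87 cells at D0, where the floor of 3 counts allows a share of up to 3.45%, to 10.2% at STOP. Il17a was not ahead of Il17f in every arm: in LN D19 Scart2 cells it was found in 2 of 58 cells (3.45%) and Il17f in 7, and in liver D0 Scart2 cells each was found in 2. Before thinning, Il17a+ shares were higher, at 37.6 to 77.0% in liver Scart1 cells.

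Il17f was scarcer, and its highest shares were in the Scart2 gate. In liver Scart2 cells Il17f+ shares were 3.51% at D0, 5.06% at D5, 12.1% at D9, 10.47% at D19, 10.2% at STOP and 10.3% at D5-DT. In liver Scart1 cells they were 0.529% (1 cell), 0.873%, 1.74%, 5.11%, 5.81% and 2.53% in the same order. The D19 and STOP arms thus stood above the other 4 liver arms in the Scart1 gate but not in the Scart2 gate. They shared 1 pool, so arm and pool cannot be told apart. Free RNA held Il17f at 81.1 CPM in that pool and 20.03 CPM in the pool of liver D0, D5 and D9. Scart1 cells held 97.3 CPM at D19 and 86.5 CPM at STOP, and the part of free RNA was not tested. In the LN, Scart2 shares ran from 0 at D0 to 12.1% at D19 (7 of 58 cells, 4.99 to 23.3%) and Scart1 shares from 0 to 1.75%, a range that reaches the 0.837% of background cells.

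Il22 was rare in every arm and was concentrated in few cells. In the Scart1 gate of the liver 0.400% (D5-DT) to 1.21% (STOP) of cells were Il22+, and in the LN 2.48% at D5 (12 of 484 cells) and 0 in the other 4 arms, which hold 43 to 62 cells each. In the Scart2 gate 11 cells were positive in all. At liver D9, the highest Il22 level (43.0 CPM), 1 Scart1 cell held 112 of the 340 Il22 UMIs and the top 1% of cells held 86.8% of them. The top 1% held 93.8% at D19, against 7.63 to 19% of the Il17a UMIs over the 6 liver arms. In these arms at most 1.21% of Scart1 cells were Il22+ and at least 22.2% were Il17a+. The contrast therefore largely restates these shares and does not compare the spread of UMIs among positive cells.

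**Figure D1:**
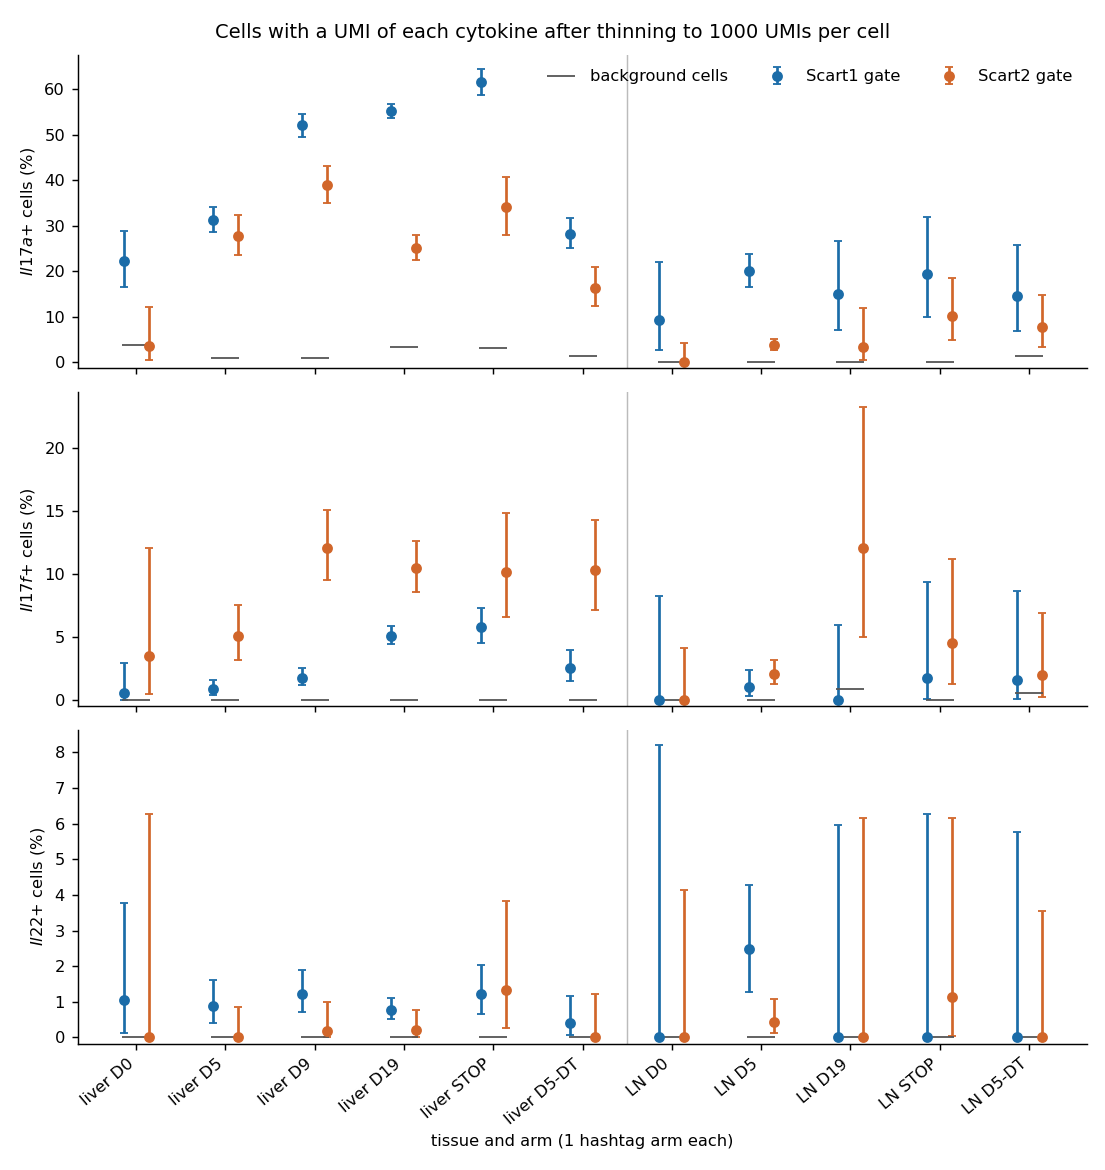
Share of cells (%, y axis, one panel per gene with its own range) with at least 1 UMI of Il17a, Il17f or Il22 after thinning to 1000 UMIs, by tissue and arm (x axis), in the Scart1 and Scart2 gates. Bars are exact 95% binomial intervals and dashes mark the background cells. Il17a is highest in Scart1 cells of liver STOP (61.6%), Il17f in Scart2 cells of liver D9 and LN D19 (12.1% each), and Il22 stays at or below 2.48%.

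The gates could be compared over arms, since both gates of an arm come from the same sorted cells. The 11 arms lie in 5 pools, and arms of a pool share a library and its free RNA. They are therefore not fully independent units, although the test treats them so. Il17a+ shares were higher in the Scart1 gate in 11 of 11 arms, with a lowest, median and highest value of 9.30%, 22.2% and 61.6% against 0, 10.2% and 39.0% in the Scart2 gate. The mean difference was 14.3 percentage points (SD 8.30 over arms; two-sided exact sign-flip permutation test, p = 0.000977, the smallest it can give; Benjamini-Hochberg adjusted over 8 tests, 0.00521). Il17f+ shares ran the other way, with 0, 1.61% and 5.81% in the Scart1 gate against 0, 5.06% and 12.1% in the Scart2 gate. Scart1 was lower in 10 arms and tied in 1, with a mean difference of -4.66 percentage points (SD 3.97; exact p = 0.00195, adjusted 0.00521). The mean Il22+ share was 0.728% in the Scart1 gate and 0.298% in the Scart2 gate (higher in 6 arms, lower in 2; exact p = 0.125, adjusted 0.167). This Il22 difference passed without thinning, with thinning to 2000 UMIs and with another random draw (exact sign-flip, adjusted p = 0.0104, 0.0195 and 0.00781).

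The balance of the 2 IL-17 genes also differed between the gates. Of the thinned UMIs of Il17a and Il17f together, Il17f held 0.794% (D0), 1.33% (D5), 0.962% (D9), 3.41% (D19), 3.45% (STOP) and 3.38% (D5-DT) in liver Scart1 cells. In liver Scart2 cells it held 10.53%, 8.19%, 10.4%, 21.1%, 12.5% and 28.8%. The ranges over the 10 arms with UMIs in both gates did not overlap (0 to 5.00% against 8.19 to 61.9%, the last from 13 Il17f and 8 Il17a UMIs at LN D19), with a mean of 2.19% against 20.9%. The gap between the ranges rests on few UMIs: liver D0 Scart2 had 2 thinned Il17f UMIs, and before thinning its part was 2.37% (4 Il17f UMIs) beside 2.30% in Scart1 cells. Before thinning, the part in liver D5-DT Scart2 cells was 15.2%, below the 20.1% of liver D19 Scart2 cells. The Il17f part was lower in the Scart1 gate in 10 of 10 arms (exact sign-flip p = 0.00195, the smallest possible, adjusted 0.00521). With 6 liver arms alone, this and the 2 other gate differences that passed kept their direction but reached an adjusted p of 0.0833.

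**Figure D2:**
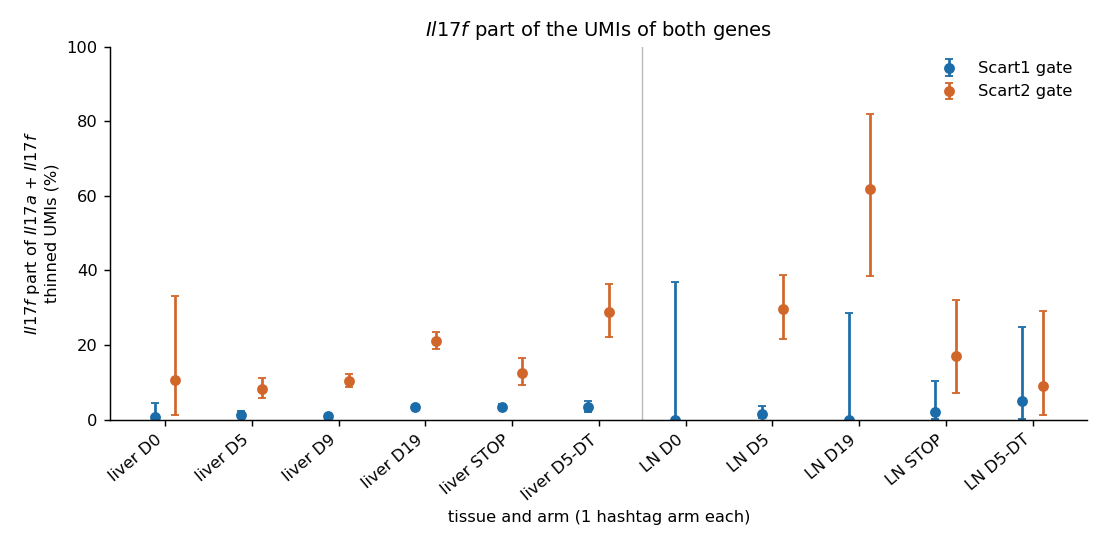
Il17f share (%, y axis, 0 to 100) of the thinned UMIs of Il17a and Il17f together, by tissue and arm (x axis) in the Scart1 and Scart2 gates, with exact 95% binomial intervals. Every Scart2 point (8.19 to 61.9%) lies above every Scart1 point (0 to 5.00%); LN D0 has no Scart2 point.

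Pooled over the liver arms, most Il17f+ cells of the gates were also Il17a+, and 2 of 76 Il22+ liver Scart1 cells carried Il17f. Il17a+ cells were 4166 of all 8469 liver Scart1 cells and 706 of all 2527 liver Scart2 cells. Among liver Scart1 cells, 246 of 314 Il17f+ cells (78.3%) and 41 of 76 Il22+ cells (53.9%) were Il17a+, while 246 of 4166 Il17a+ cells (5.90%) were Il17f+. In liver Scart2 cells 147 of 245 Il17f+ cells (60.0%) were Il17a+ and 20.8% of Il17a+ cells were Il17f+, a higher overlap seen from the Il17a side. The arms differed, since at liver D5-DT 7 of 19 Il17f+ Scart1 cells and 8 of 31 Il17f+ Scart2 cells were Il17a+, and at liver D0 0 of 1 and 0 of 2. In the LN 4 of 7 Il17f+ Scart1 cells and 8 of 32 Il17f+ Scart2 cells (25%) were Il17a+, so most Il17f+ Scart2 cells there had no Il17a UMI after thinning. Of all LN gate cells, 130 of 706 in Scart1 and 54 of 1275 in Scart2 were Il17a+. All 3 transcripts were found in 4 of 33564 cells after thinning and in 27 before, and Il17f with Il22 but without Il17a in 1 cell. Before thinning, 31 of 188 Il22+ Scart1 cells carried Il17f and 133 carried Il17a. Of all 9175 Scart1 cells, 718 carried Il17f and 5786 carried Il17a before thinning.

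Within an arm, Il17f was detected more often in Il17a+ cells than in Il17a- cells. In the Scart1 gate the Il17f+ share was 1.67% of Il17a+ against 0.509% of Il17a- cells at liver D5, 2.45% against 0.979% at D9, 7.60% against 2.03% at D19, 8.03% against 2.26% at STOP, 3.30% against 2.23% at D5-DT and 4.12% against 0.258% at LN D5. Liver D0 went the other way, with 0 of 42 against 1 of 147 cells. In the Scart2 gate the shares were 9.92% against 3.18% at D5, 21.0% against 6.41% at D9, 27.3% against 4.80% at D19, 20.8% against 4.70% at STOP, 16.3% against 9.13% at D5-DT and 20% against 1.33% at LN D5. The 6 Scart2 values in Il17a+ cells (9.92 to 27.3%) all lay above the 6 in Il17a- cells (1.33 to 9.13%), whereas the Scart1 ranges overlapped.

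The mean difference was 2.60 percentage points in the Scart1 gate (SD 2.48, higher in 6 of 7 arms) and 14.3 in the Scart2 gate (SD 6.28, 6 of 6 arms). Both had an exact sign-flip p of 0.03125 and an adjusted p of exactly 0.05, which did not pass a threshold of under 0.05; 6 arms can give no smaller p. Without thinning, with 2000 UMIs and with another draw both passed (exact sign-flip, adjusted p = 0.025 in each for Scart1, and 0.0357, 0.0417 and 0.0417 for Scart2). Before thinning, deeper cells are more often positive for any gene, so those values also carry depth. The adjusted exact p was higher with at least 50 cells per class (0.0625 and 0.167), in liver arms alone (0.0833 in both) and with 1 arm left out (0.05 to 0.1 for Scart1 and 0.1 for Scart2), where fewer arms remain.

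Il22 showed no such difference in detection. Among Scart1 cells the Il22+ share was 0, 1.39%, 1.42%, 0.774%, 1.13%, 0.472% and 4.12% in Il17a+ cells of liver D0, D5, D9, D19, STOP, D5-DT and LN D5. It was 1.36%, 0.636%, 0.979%, 0.777%, 1.35%, 0.372% and 2.07% in Il17a- cells of the same arms. Il17a+ cells were higher in 4 of 7 arms, by a mean of 0.252 percentage points (exact sign-flip p = 0.594, adjusted 0.679). Without thinning the difference was 1.19 points (exact sign-flip, adjusted p = 0.025), and without LN D5 it was -0.0493. In the 3 arms with enough Il17f+ cells, the mean Il22+ share was 0.995% of Il17f+ and 1.05% of Il17f- Scart1 cells, with an exact sign-flip p of 1, where 0.25 is the smallest it can give.

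**Figure D3:**
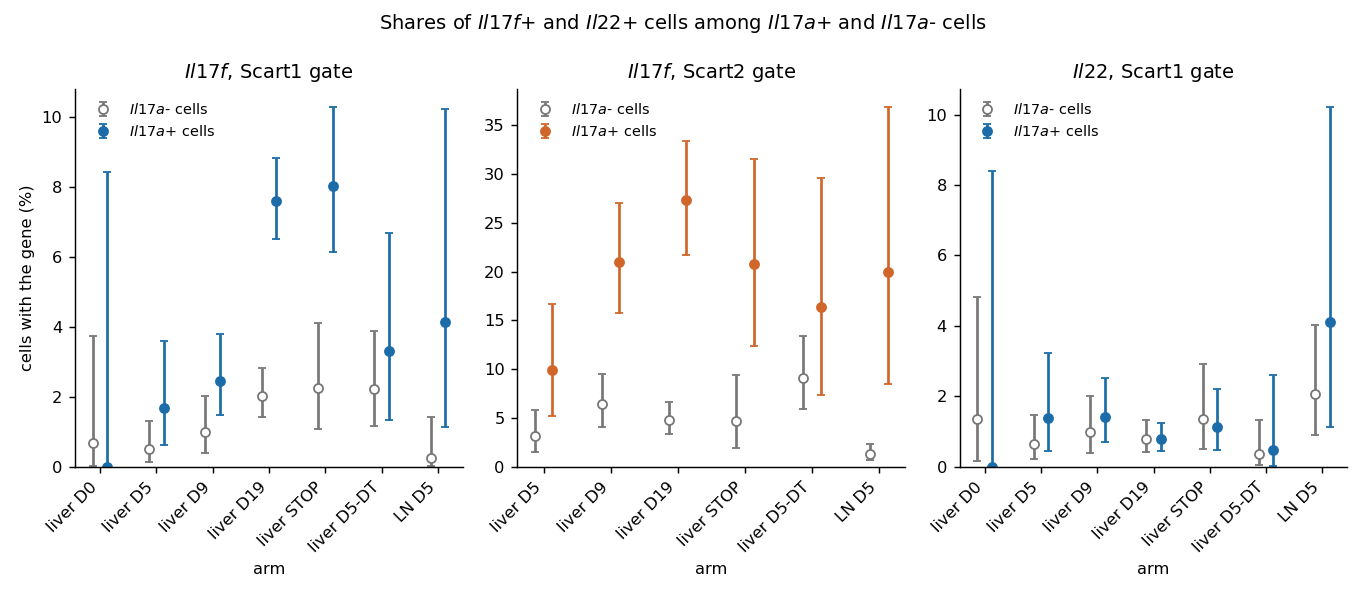
Share of Il17f+ cells (left, Scart1 gate; middle, Scart2 gate) and of Il22+ cells (right, Scart1 gate) in %, on the y axis, among Il17a+ (filled) and Il17a- (open) cells of each arm on the x axis, with exact 95% binomial intervals and separate y ranges. Il17f lies higher in Il17a+ cells in 6 of 7 and 6 of 6 arms, Il22 in 4 of 7.

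The Il17f share also went with the number of Il17a UMIs in a cell. At liver D19, 2.03% of Scart1 cells with 0 Il17a UMIs were Il17f+, 4.02% of those with 1, 7.14% of those with 2 to 4 and 10.99% of those with 5 or more. In Scart2 cells of that arm the shares were 4.80%, 16.3%, 24.3% and 48.4% (31 of 64 cells). The order held over 4 steps at liver D5 and D9 in the Scart2 gate as well (3.18 to 13.6% and 6.41 to 28.8%), but in the Scart1 gate of D9 the shares were 0.979%, 3.30%, 1.74% and 2.61%. In liver STOP Scart2 cells the share was 27.3% at 2 to 4 UMIs and 17.4% at 5 or more, with wide intervals (10.7 to 50.2% and 4.95 to 38.8%). Il22 showed no order at liver D19, with 0.777%, 0.838%, 0.270% and 1.24% of Scart1 cells over the same steps. These shares were not tested.

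**Figure D4:**
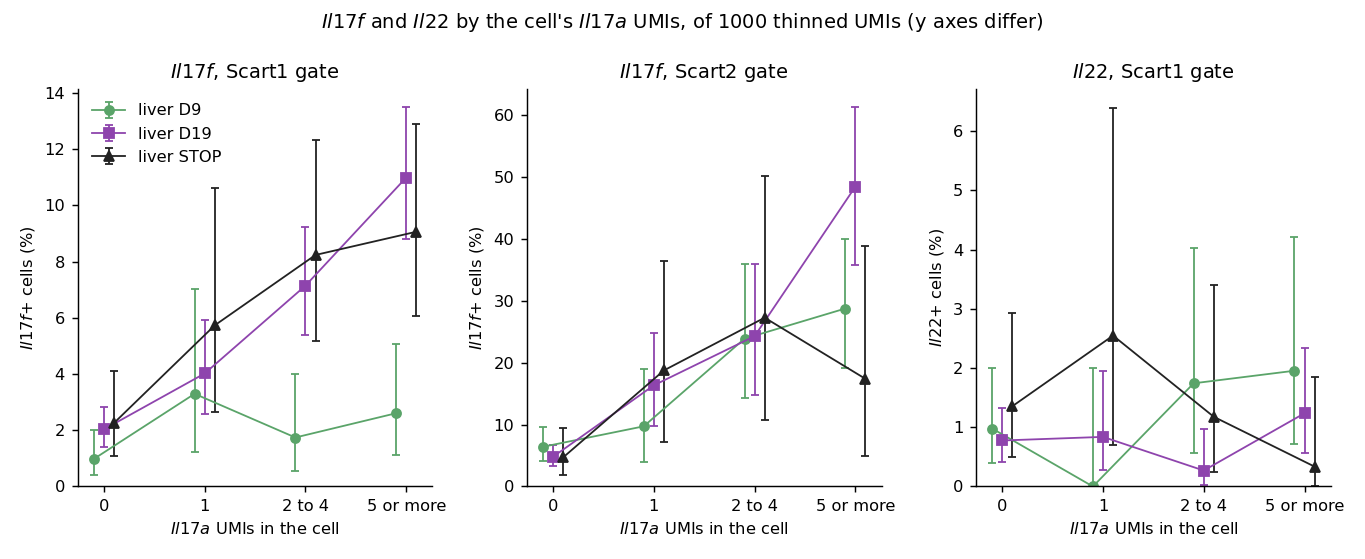
Share (%, y axis, ranges differ between panels) of Il17f+ cells in the Scart1 gate (left) and the Scart2 gate (middle) and of Il22+ cells in the Scart1 gate (right), by the number of Il17a UMIs among the 1000 thinned UMIs of the cell (x axis), for liver D9, D19 and STOP, with exact 95% binomial intervals. At D19 the Il17f share goes from 2.03 to 10.99% in Scart1 and from 4.80 to 48.4% in Scart2 cells.

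The genes that went with each cytokine were tested on UMIs summed per arm for positive and negative cells of a gate (edgeR quasi-likelihood test with the arm as a block, Benjamini-Hochberg over all genes of a fit). A log2 fold change is positive over negative cells of the same arm. The fits share dispersion over genes, so very small p-values and SE from few arms do not measure agreement between arms.

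Il17a+ Scart1 cells carried more Il17f than Il17a- cells in 7 of 7 arms, and more Il22 in 5 of 7. The 7 arms of this fit were the 6 liver arms and LN D5. Il17f stood at 31.6, 41.8 and 154 CPM (lowest, median, highest arm) in Il17a+ sums and 4.46, 11.4 and 28.9 CPM in Il17a- sums, a log2 fold change of 2.24 ± 0.12 (SE; adjusted p = 2.17e-12). Il22 stood at 3.83, 22.6 and 68.8 against 5.73, 12.95 and 33.7 CPM (log2 fold change 0.99 ± 0.25, adjusted p = 0.0123). The Il17a+ and Il17a- sums did not overlap for Il17f, but the gap was narrow and rested on few UMIs. The lowest Il17a+ value (31.6 CPM, liver D0) came from 7 Il17f UMIs, and the highest Il17a- value was 28.9 CPM (liver STOP). Il17a- cells of liver D0 held 9 Il17f UMIs. For Il22 the sums overlapped, and Il22 was lower in Il17a+ sums at liver STOP (20.2 against 33.7 CPM) and D5-DT (3.83 against 12.95 CPM). The Il22 call was lost without liver D9 (log2 fold change 0.43, adjusted p = 0.372), without liver D19 (0.85, 0.101) and with DESeq2 (0.58, 0.633).

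Of 9281 genes tested in this fit 884 passed (9.52%), 497 higher and 387 lower in Il17a+ cells. Of 10 cytokine genes tested, Areg, Il17f, Il22, Tgfb1 and Tnf were higher and Ifng, the type 1 cytokine, was lower. Areg, which encodes the epidermal growth factor receptor ligand amphiregulin, had 370 against 116 CPM (3.06-fold). The list of type 17 transcription factor genes, of which 17 were tested, also held Tbx21, the type 1 factor. Of the 17, 11 were higher (Hif1a, Ikzf3, Irf4, Jund, Maf, Nfkbiz, Prdm1, Rora, Sox13, Stat3 and Zbtb16) and 1, Tbx21, was lower. The median log2 fold change of the list was 0.26 beside -0.01 over all genes. Irf4 was 2.31-fold higher.

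Receptor and T cell receptor response genes moved with Il17a in part. Of 17 receptor and signalling genes 6 were higher (Blk, Cd44, Icos, Il1r1, Il23r, Il2ra) and 2 lower (Il6st, Jak2). Of 14 response genes 6 were higher, among them Ctla4 (1.91-fold, an inhibitory receptor), Pdcd1, Cd69 and the nuclear receptor genes Nr4a1 and Nr4a3, and 3 lower (Dusp2, Myc, Tnfrsf18). Other large rises were in Cxcl2 (2.15-fold, a neutrophil chemokine), the stress gene Gadd45b (1.93-fold), the peptide transporter gene Slc15a3 (1.86-fold), the NF-κB regulator Nfkbid (1.84-fold) and the small GTPase gene Gem (1.84-fold).

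Of 13 homing genes 7 were lower, among them Cxcr3, Itga1, Itga4, Klf2, Lef1 and S1pr1, and 4 higher (Ccr2, Cxcr6, Itgae, Ltb4r1). Among genes with a mean of at least 50 CPM, the 5 largest falls were in Gzma (157 against 457 CPM), Hspa1b, Nkg7, Ly6c2 and Ccl5 (736 against 1777 CPM). Hspa1b and its near copy Hspa1a may exchange reads. Of 12 glycolysis genes 3 were higher (Ldha, Pfkp, Pkm) and of 12 secretory pathway genes 3 (Hspa5, Manf, Sec61b), with 0 lower in either list; of 8 genes linked to cell dissociation 2 were higher and 2 lower. Of the 6 NK or cytotoxic markers (Ncr1, Klrb1c, Gzma, Gzmb, Eomes, Prf1) 5 were tested, 4 were lower and 0 higher. They summed to a median of 153 CPM (23.2 to 956) in Il17a+ and 541 CPM (217 to 2258) in Il17a- sums of 8 arms (the 7 of the fit and LN STOP), lower in 8 of 8, and their part in these differences was not tested.

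In the Scart2 gate (6 arms: 5 liver arms without D0, and LN D5) 252 of 6792 genes passed (3.71%), 167 higher and 85 lower. Among genes with a mean of at least 50 CPM, Il17f had the largest rise. It stood at 134, 292 and 839 CPM in Il17a+ against 18.7, 63.6 and 97.3 CPM in Il17a- sums with no overlap between arms (log2 fold change 2.51 ± 0.25, adjusted p = 1.05e-06). Areg followed at 5.10-fold, then Pdcd1 (2.64-fold), Ctla4 (2.62-fold), Gm36723 (2.35-fold), Ltb4r1 (2.23-fold, a leukotriene B4 receptor), the protease gene Furin (2.23-fold) and the costimulatory receptor gene Icos (2.22-fold). Of 16 type 17 transcription factor genes 4 were higher (Hif1a, Irf4, Maf, Rora) and 0 lower, and of 12 T cell receptor response genes 6 were higher. Plac8 (0.190-fold), Hspa1b, Ly6c2 and the kinase gene Lck were among the largest falls at a mean of at least 50 CPM. Of 4 NK or cytotoxic markers tested 2 were lower (Gzma, Gzmb), and the 6 summed to a median of 95.4 CPM (86.6 to 429) in Il17a+ and 303 CPM (71.8 to 902) in Il17a- sums of the 6 arms, lower in 5 of 6. Their part was not tested.

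Among genes with a mean of at least 50 CPM, Il17a had the largest rise with Il17f in both gates. The Il17f fits held fewer arms and cells than the Il17a fits, so their counts of genes are not comparable. In the Scart1 gate (liver D9, D19 and STOP, 284 Il17f+ cells) 32 of 9230 genes passed (0.347%), 24 higher and 8 lower. Il17a stood at 4213 to 5641 CPM in Il17f+ and 2459 to 3028 CPM in Il17f- sums (log2 fold change 0.94 ± 0.06, adjusted p = 1.08e-33). Gem (1.85-fold), Sdc4, Slc15a3, Klf4, Cdkn1a, Cwc25 and Pxdc1 followed at 1.65- to 1.77-fold for all but Gem. The egress receptor gene S1pr1 (0.486-fold), Ccl5 (0.526-fold), 9930111J21Rik2 and Txnip were the falls at a mean of at least 50 CPM, while the stress gene Hspa1b, below that mean, fell by 2.18 on the log2 scale (SE 0.35, adjusted p = 3.4e-06). Of 17 type 17 transcription factor genes 0 passed. Il22 did not differ detectably, at 3.53 to 79.1 CPM in Il17f+ and 21.9 to 43.2 CPM in Il17f- sums (log2 fold change -0.04 ± 0.35, adjusted p = 1), and took the value 2.36 (adjusted p = 4.12e-06) where any UMI of the unthinned cell set the class, in 5 arms in place of 3. Of 4 NK or cytotoxic markers tested 0 passed. Nkg7 was lower (log2 fold change -1.18 ± 0.27, adjusted p = 0.0084), and the 6 markers summed to a median of 196 CPM (23.9 to 258) in Il17f+ and 277 CPM (184 to 1832) in Il17f- sums of 5 arms (those of the fit, liver D5 and D5-DT), lower in 5 of 5. Their part was not tested.

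In the Scart2 gate (5 liver arms, 243 Il17f+ cells) 79 of 5203 genes passed (1.52%), 57 higher and 22 lower. Il17a stood at 1216, 2814 and 6357 CPM in Il17f+ and 451, 827 and 1639 CPM in Il17f- sums (log2 fold change 1.82 ± 0.14, adjusted p = 3.11e-14). Plcl2, Gm43305, Phlda1, Slc7a6os, the elongation factor gene Ell2, the glycosyltransferase gene Gcnt2 and Areg were 1.98- to 2.43-fold higher. Of 12 T cell receptor response genes 5 were higher (Cd69, Ctla4, Nr4a1, Nr4a3, Pdcd1) and 0 lower. Klrd1 (0.253-fold), Hspa1b, Xcl1, Fcer1g and Gzmb (0.314-fold) fell most among genes with a mean of at least 50 CPM, and Ly6c2, below that mean, fell by 2.61 on the log2 scale. Of 2 NK or cytotoxic markers tested both were lower (Gzma, Gzmb). The 6 summed to a median of 94.1 CPM (74.0 to 341) in Il17f+ and 254 CPM (72.5 to 867) in Il17f- sums of 6 arms (the 5 of the fit and LN D5), lower in 5 of 6, and their part was not tested.

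Among Il17a+ Scart1 cells of liver D19 and STOP alone (214 Il17f+ cells in 2 arms), 13 of 8331 genes passed (0.156%), all higher in Il17f+ cells. Il17a itself was 1.43-fold higher (6194 and 6834 against 4479 and 4800 CPM; log2 fold change 0.51 ± 0.06, adjusted p = 3.1e-14). Ptgs2 (2.44-fold, the prostaglandin synthase COX-2), Atf3 (1.88-fold, a stress factor also raised by cell dissociation), Klf4, Pxdc1, Slc15a3, Neurl3, Cwc25 and Areg (1.52-fold) were the others named by size. With DESeq2 1 gene passed in this comparison.

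The Il22 fit of Scart1 cells held 83 Il22+ cells of 5 arms (liver D5 10, D9 18, D19 29, STOP 14, LN D5 12), and 39 of 7946 genes passed (0.491%), 6 higher and 33 lower. DESeq2 called 4 higher and 1 lower. Gzma (17.03 against 287 CPM), Ccl5 (179 against 1156 CPM), Klrd1, Ms4a4b and the integrin gene Itga4 fell most among genes with a mean of at least 50 CPM. Below that mean, Ly6c2 fell by 3.82 and Hspa1b by 2.64 on the log2 scale. Auts2 (3.34-fold), Maff, Cxcl2 (2.22-fold), Slc15a3 and the lipid droplet gene Hilpda (1.58-fold) were higher. Of 4 NK or cytotoxic markers tested 2 were lower (Gzma, Gzmb), and the 6 summed to 20.1 to 302 CPM (median 59.9) in Il22+ and 181 to 1831 CPM (median 240.2) in Il22- sums of the same 5 arms. Their part was not tested.

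Il17f also passed with Il22, on few UMIs. It had 86.4, 61.1, 156, 443 and 40.3 CPM in Il22+ sums of liver D5, D9, D19, STOP and LN D5, from 4, 6, 13, 21 and 2 UMIs, against 16.6, 24.2, 96.8, 82.1 and 11.3 CPM in Il22- sums. It was higher in 5 of 5 arms (log2 fold change 1.48 ± 0.30, adjusted p = 0.000511), and without liver STOP the change was 1.08 (adjusted p = 0.423). Il17a did not pass (0.33 ± 0.12, adjusted p = 0.251): it was higher in Il22+ sums of liver D5, D9 and D19 and lower at liver STOP (1539 against 3175 CPM) and LN D5. Without liver STOP it was 0.69 with an adjusted p of 0.000403.

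**Figure D5:**
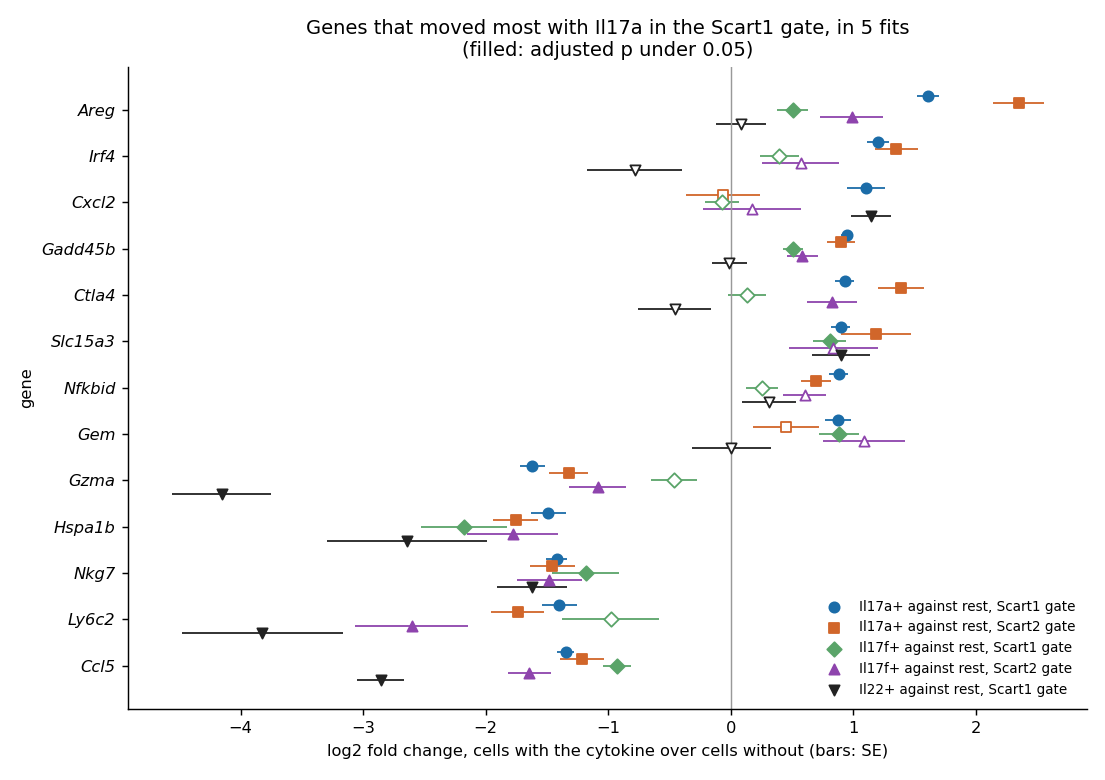
Log2 fold change (x axis) of the genes named for Il17a in the Scart1 gate (y axis), in 5 comparisons of cells with a cytokine against cells without. Filled symbols passed an adjusted p of 0.05, open symbols did not, and bars are SE. Areg is higher with Il17a in both gates (1.61 and 2.35), and Gzma (-4.16) and Ccl5 (-2.86) each lie lowest in the Il22 comparison.

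Liver and LN were compared over the 5 conditions measured in both. Apart from D5-DT, the liver and LN arms of a pair came from different pools, so tissue and pool cannot be told apart. Within the D5-DT pool Il17a stood at 835 CPM in liver against 509 CPM in LN Scart1 cells and at 504 against 122 CPM in Scart2 cells, and Il17f at 29.8 against 12.3 CPM (4 UMIs) and 90.6 against 21.6 CPM (9 UMIs), from 1 arm per tissue. In the Scart1 gate 262 of 8920 genes passed (2.94%) and in the Scart2 gate 432 of 6290 (6.87%). Il17a ranged from 671 to 3154 CPM in liver and 98.2 to 761 CPM in LN Scart1 cells (log2 fold change 1.87 ± 0.33, adjusted p = 0.00851), and from 504 to 1412 CPM against 0 to 233 CPM in Scart2 cells (3.12 ± 0.38, adjusted p = 0.000627). Il17f was higher in liver Scart2 cells (13.7 to 262 against 2.12 to 250 CPM; 1.30 ± 0.27, adjusted p = 0.0127), a call lost without the D5 pair (adjusted p = 0.0703). In Scart1 cells Il17f had 15.8 to 97.3 against 3.60 to 37.1 CPM (1.35 ± 0.35, adjusted p = 0.0565). Il22 in Scart1 cells had 6.77 to 25.4 against 0 to 33.3 CPM (0.10 ± 0.70, adjusted p = 0.990), and its sign turned when D0, D19, STOP or D5-DT was left out. Genes usual in other cells and a stress gene passed in the same fits. In Scart1 cells Gzmb was 8.498-fold and Klre1 5.43-fold in liver over LN. In Scart2 cells Gzmb was 14.7-fold and Hspa1b 13.1-fold, and the B cell and antigen presentation genes Igkc and Cd74 and the CD8 gene Cd8b1 were 0.0917-, 0.176- and 0.0955-fold. Their part in the tissue differences was not tested.

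With 1 arm per day and no test, the ratios between liver arms of different days were unlike for the 3 genes. In liver Scart1 cells the Il17a level at D9 was 2.48-fold that at D5 (2.41 to 2.55), Il22 6.35-fold (4.68 to 8.78) and Il17f 1.44-fold (1.15 to 1.83). The Il22 ratio rests on few cells, since 1 cell held 112 of the 340 UMIs at D9, and Il22+ cells were 0.873% at D5 and 1.21% at D9; its interval treats UMIs as independent. From D9 to D19, which lie in different pools, Il17f was 3.95-fold (3.39 to 4.63) while Il17a was 1.07-fold (1.06 to 1.09) and Il22 0.487-fold (0.410 to 0.578). Free RNA of these 2 pools held Il17f at 20.03 and 81.1 CPM, beside 24.6 and 97.3 CPM in the Scart1 cells. It held Il17a at 545 and 1354 CPM and Il22 at 7.05 and 9.01 CPM. The part of free RNA in these ratios was not tested. In Scart2 cells Il17a at D19 was 0.487-fold that at D9 (0.464 to 0.511) and Il17f 1.44-fold (1.28 to 1.63). At STOP against D19, within 1 pool, Scart2 cells had 1.36-fold Il17a (1.26 to 1.47) and 0.640-fold Il17f (0.520 to 0.781), and Scart1 cells 1.18-fold Il17a and 0.889-fold Il17f (0.784 to 1.01). The 6 NK or cytotoxic markers moved over the same liver arms: they summed to 1763, 1821, 226, 276 and 179 CPM in the Scart1 gate at D0, D5, D9, D19 and STOP and to 621, 670.5, 119, 186 and 287 CPM in the Scart2 gate. Their part in these ratios was not tested.

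D5-DT lay in a pool of its own, so the toxin, the genotype and the pool cannot be told apart when it is set against D5. In the liver, Il17a at D5-DT was 0.832-fold that at D5 in Scart1 cells (0.799 to 0.866) and 0.570-fold in Scart2 cells (0.519 to 0.626). Il17f was 1.75-fold (1.35 to 2.26) and 1.18-fold (0.913 to 1.51). In the LN, Il17a was 0.879-fold in Scart1 cells (0.743 to 1.03) and 1.36-fold in Scart2 cells (0.999 to 1.83), and Il17f was 1.04-fold (0.266 to 2.95) and 0.777-fold (0.347 to 1.52), from 4 and 9 UMIs at D5-DT, and 0.588-fold over all LN cells (0.330 to 0.977). Il22 had 0 UMIs in 62 LN Scart1 cells at D5-DT and 84 UMIs in 484 cells at D5, where 12 cells were Il22+, so a difference was not detectable with this number of cells. The neutrophil genes S100a8 and S100a9 summed to 9.58 to 972 CPM in the gates of the D5-DT arms and 0 to 85.1 CPM in those of other arms, and the 4 myeloid markers to 225 to 824 CPM against 0 to 1640 CPM (the highest being LN STOP Scart1). The NK or cytotoxic markers summed to 559.6 CPM at liver D5-DT against 1821 CPM at D5 in the Scart1 gate and to 831 against 670.5 CPM in the Scart2 gate, and in the LN to 247 against 236 CPM and 992 against 72.9 CPM. Their part in these ratios was not tested.

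Across 33 sums of at least 30 cells (Scart1, Scart2 and ungated cells of 11 arms), the genes whose log2(CPM + 10) was most like that of Il17a, of 2955 compared, were Smox (Pearson r 0.941), Mgat5 (0.935), Hilpda (0.924), Icos (0.924) and Blk (0.920). For Il17f they were Sik1 (0.837), Gna13, Lncpint, Hnrnpll and Emb (0.807), and for Il22 Ciao2a (0.807), Krt83, Ckb, Pon2 and Itm2b (0.748). Il17a had an r of 0.719 with Il17f and 0.648 with Il22, and Il17f and Il22 had 0.352. Sums of 1 pool share a library and its depth, and these values are descriptions with no test.

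T cells of the LN CITE-seq libraries (a Cd3d, Cd3e and Cd3g sum of at least 2 UMIs) held very few cytokine transcripts. Before thinning, Il17a was found in 4 of 2688 T cells at D0, 6 of 1693 at D5 and 2 of 2587 at D19. Il17f was found in 1, 0 and 6 T cells and Il22 in 6, 10 and 3. As a background, cells with B cell markers, which should lack these genes, held Il22 in 4 of 2327, 12 of 3580 and 2 of 2308 cells, Il17a in 1, 2 and 1 and Il17f in 0, 1 and 2 (median 3484, 3915 and 2149 UMIs per cell, against 5497.5, 6288 and 3760 in T cells). Il22 in free RNA stood at 23.5 CPM in the D5 library, above its 0.999 CPM in T cells, and the part of free RNA in the T cell values was not tested. A single T cell, at D0, held Il17a and Il17f together, and 0 held Il22 with either, so that co-detection could not be compared at this depth. Only 5, 2 and 3 T cells passed a γδ T cell gate in these mixed sorts.

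Most Il22 UMIs of these libraries lay outside T cells, which held 11.1%, 3.86% and 14.1% of them at D0, D5 and D19. In T cells Il22 stood at 1.65, 0.999 and 1.54 CPM.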

How the data were processed

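γδ T cells were measured in 5 hashtagged pools and mixed LN cells in 3 CITE-seq libraries (16 deposited samples, RNA and tag libraries apart). The authors' deposited matrices hold raw UMI counts per gene and cell from 10x 3' v3.1 libraries; per the submitters' processing notes they used Cell Ranger (version 6.0.0 in the study's methods) and the mm10 build. Reads of near-identical genes may be lost or misplaced by such counting. From these counts, cells with at least 1000 RNA UMIs were kept, an arm was assigned where the top tag had at least 10 UMIs and 3 times the next, and cells were thinned to 1000 UMIs (random seed 1). Doublets across arms fail the tag rule; those within an arm were kept, and Scrublet marked 1.40 to 9.99% of cells per pool for an alternative.

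Cells were classed by thinned UMIs, and unthinned UMI counts were summed per arm and class where each class held at least 20 cells (10 for Il22 and for liver against LN). The sums were tested with edgeR 4.0.16 quasi-likelihood fits (R 4.3.3; filterByExpr, TMM, Benjamini-Hochberg threshold 0.05) with the arm, or the condition for liver against LN, as a block, since both classes of an arm are the same sorted cells. Shares were compared over arms by exact sign-flip permutation (numpy 2.4.6). Intervals are exact at 95% and cover counting error only, and the floor for a count of 0 is 3 counts. Arms are the units of every test, and mice per arm are not stated. Sign-flip p-values measure the spread between arms, and treat arms of 1 pool as independent although they share a library. The edgeR p-values also rest on a dispersion shared over genes. In fits of few arms, a very small p therefore does not measure agreement between arms. Named genes were the 8 largest rises and 5 largest falls past the threshold with a mean of at least 50 CPM, plus members of 8 fixed gene lists that passed and, for likeness, the 5 highest correlations. The members, lists and rules were chosen with earlier results of these data known. Alternatives were other UMI minimums, filters, tag rules, gates, thinning, doublets left out, DESeq2 1.42.0, no low-count filter, no block and each arm left out. Some genes of the fixed lists are not reported here. The scripts were tested on simulated data.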

Additional observations from a re-analysis of the deposited data

Results flagged for a closer look

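The values below had opposite signs in different groups between the same 2 time points. Each value is a log2 ratio of CPM over 1 arm per time point, with a 95% counting interval, so the difference between groups was not tested, and arms of different pools are compared except for STOP against D19. Il17a at D19 over D9 was 0.10 (0.08 to 0.13) in liver Scart1 cells and -1.04 (-1.11 to -0.97) in liver Scart2 cells. Il17a at D19 over D5 was 1.41 (1.38 to 1.45) in liver Scart1 cells, -1.22 (-1.59 to -0.87) in LN Scart1 cells and 0.68 (0.11 to 1.21) in LN Scart2 cells. Il22 at D19 over D5 was 1.63 (1.17 to 2.11) in liver Scart1 cells and -3.21 (-8.53 to -0.69) in LN Scart1 cells, the latter from 1 UMI at D19 against 84 at D5. In the LN 0 of 60 cells were Il22+ at D19 and 12 of 484 at D5, so a difference was not detectable with this number of cells. In the liver Il22+ cells were 0.873% at D5 (10 of 1145) and 0.775% at D19 (29 of 3741), and the top 1% of cells held 93.8% of the Il22 UMIs at D19, while the intervals treat UMIs as independent. Il17f at STOP over D19 was 3.37 (0.61 to 8.78) in LN Scart1 cells, from 12 UMIs at STOP against 1 at D19, and -2.46 (-3.23 to -1.73) in LN Scart2 cells. At STOP and D19 the NK or cytotoxic markers summed to 1486 and 32.4 CPM in LN Scart1 cells and 47.5 and 18.5 CPM in LN Scart2 cells. Myeloid markers summed to 1640 and 28.8 CPM and to 89.0 and 13.9 CPM. Their part was not tested.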

How the results depend on the processing

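Differences in shares are in percentage points, with exact sign-flip permutation and adjusted p. The Il17f difference between Il17a+ and Il17a- cells passed with 2000 UMIs, no thinning and another draw (Scart1 4.34, 6.71 and 3.31, adjusted p = 0.025 each; Scart2 16.7, 18.1 and 12.3, adjusted p = 0.0417, 0.0357 and 0.0417). That of Il22 by Il17a was -0.0649 with stricter gates, 1.19 without thinning, -0.158 with another draw, -0.125 in type 17 cells (gate cells with at least 2 UMIs of a set of type 17 genes together, chosen after seeing the data) and -0.0493 in liver arms, and that of Il22 by Il17f was 0.0944 with 1500 UMIs, 1.03 with 2000, 3.48 without thinning, 2.15 with another draw, 0.532 with at least 50 cells and 0.0032 in type 17 cells. In liver arms alone the gate differences were 17.5 for Il17a, -5.84 for Il17f and -13.04 for the Il17f part, which kept its direction with at least 20 UMIs per gate (chosen after seeing the data). The Il22 gate difference passed at 0.841 (2000 UMIs), 1.61 (no thinning), 0.695 (another draw) and without LN STOP (0.587, adjusted exact p = 0.0417). Leaving out 1 arm gave 2.08 to 3.15 and 12.7 to 15.8 for Il17f by Il17a, -0.0493 to 0.520 for Il22 by Il17a, -1.02 to 0.532 for Il22 by Il17f, 12.8 to 15.4, -5.12 to -3.91 and 0.268 to 0.587 for the gates, and -20.4 to -13.9 for the Il17f part.

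Counts of genes moved by over 1.5 times as follows. With Il17a in Scart1 cells (884) 377 passed on thinned sums; in Scart2 cells (252) 167 with DESeq2, 402 without a low-count filter and 67 on thinned sums. With Il17f in Scart1 cells (32) 12 passed with DESeq2, 2 on thinned sums and 126 with any UMI, a class rule that brought 5 arms into the fit in place of 3; in Scart2 cells (79) 46, 120 without a filter, 16 on thinned sums, 47 with mitochondrial and gene filters (4 arms in place of 5) and 8 in type 17 cells (2 arms). With Il22 (39) 5 passed with DESeq2, 79 with any UMI and 10 in type 17 cells (4 arms in place of 5). With Il17f among Il17a+ cells (13) 1 passed with DESeq2, 3 without a filter, 2 on thinned sums, 5 with mitochondrial and gene filters and 1 in type 17 cells. For liver against LN 771, 136 and 99 passed in Scart1 cells and 827, 186 and 184 in Scart2 cells without a filter, on thinned sums and in type 17 cells. Without the replicate block the 8 fits called 0, 3, 0, 0, 0, 0, 42 and 114 genes by edgeR (620, 466, 189, 285, 465, 91, 1025 and 911 at an unadjusted p under 0.05), where DESeq2 with the block called 650, 167, 12, 46, 5, 1, 336 and 318. Without the block Il17f with Il17a in Scart1 cells was 2.27 (log2, adjusted p = 0.0801). Leaving out 1 arm gave 644 to 910, 121 to 309, 9 to 24, 30 to 87 and 16 to 64 genes for the Il17a, Il17f and Il22 fits, and 114 to 205 and 140 to 496 for the tissue fits. The count was 121 without liver D5 and 163 without D5-DT (Il17a, Scart2), 15 without D19 and 9 without STOP (Il17f, Scart1), 51, 39 and 30 without D5, D9 and D5-DT (Il17f, Scart2), 16 and 64 without D5 and D9 (Il22), 114, 132 and 133 without D0, D19 and D5-DT (tissue, Scart1), and 237 and 140 without D0 and D5 (tissue, Scart2).

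Signs turned for log2 fold changes that had not passed. Il22 with Il17f was 2.36 with any UMI, 0.16 without liver D9 and 0.86 without liver D19, and among Il17a+ cells -0.34 with DESeq2. Without liver STOP, Il22 with Il17f kept its sign, at -1.64. Il17a with Il22 was -0.10 in type 17 cells and -0.0151 without liver D5. Without liver STOP, Il17a with Il22 kept its sign, at 0.69, and passed. Il22 in liver against LN was -0.036 without the block, -0.29 in type 17 cells, and -0.059, -0.22, -0.40 and -0.13 without D0, D19, STOP and D5-DT. Of 182 log2 values 149 kept direction and call, as did 128 of 155 differences in shares. The cause of these shifts was not tested. LN Scart1 gates held 43 to 484 cells, which limits what could be detected there.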

Other observations

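Cells that passed neither gate held the 3 transcripts in shares that differed between arms. In the liver at least 1 of them was found after thinning in 2.33% of such cells at D0, 3.66% at D5, 11.5% at D9, 19.97% at D19, 16.1% at STOP and 2.93% at D5-DT, and in the LN in 0.208% to 1.41% (55 of 12841 cells). In all 680 of 19878 cells held one, and the only cell with Il17f and Il22 but without Il17a was among the liver cells of this class. The gates were set before thinning, so shallow cells miss them more readily. Median depth was 5002 UMIs per cell in the pool of liver D0, D5 and D9 and 2849 in that of D19 and STOP. Free Il17a stood at 545 and 1354 CPM in these pools. The part of depth and free RNA in these shares was not tested.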
